A study of Mus musculus with 11 samples.

Results

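The chemokine system of mouse skin was followed here through 35 genes, 28 ligands and 7 receptors, in mice given a BET inhibitor. A gene was read from its brightest probe set over all arrays among the probe sets annotated to that gene alone. Of the 35 genes, 34 had such a probe set; Ccl19, whose probe set is annotated to several genes, was not analysed here. Of these 34, 28 passed the filter on dim genes (brighter than the 40th percentile in 3 or more arrays) and were tested, as part of 13710 genes kept of 18194. The treated mice were 4 given 1 mg/kg of ABBV-075 (mivebresib, which blocks the bromodomains of the BET proteins) with skin taken at 6 h, and 4 given the same dose with skin taken at 24 h. The controls were 3 mice given vehicle, whose time of skin collection is not given. All samples were skin, 1 array per mouse, and the sources used here do not give strain, sex, age or route of dosing.

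Chemokines are small secreted proteins that guide leukocytes by binding G protein-coupled receptors on their surface. They are named by the spacing of their first cysteines as CC, CXC, CX3C and XC ligands. In skin, keratinocytes, fibroblasts, endothelial cells and resident macrophages make them, some constantly and others after interferon or NF-κB signalling. BET proteins read acetylated histones and help transcription of many inducible inflammatory genes.

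All levels are log2(intensity + 16) of quantile-normalized intensities, on which 4.00 is the floor, and differences are on the same scale, which understates the difference of dim genes. A level says nothing of one gene against another, because probe sets differ in brightness. The skin label was checked on keratin genes of the epidermis, which were bright: Krt14 lay at 11.393 to 12.534 at 6 h, 11.615 to 13.018 at 24 h and 11.388 to 12.203 in vehicle. The muscle actin gene Acta1 lay at 12.413 to 13.711 at 6 h, 13.122 to 13.773 at 24 h and 13.348 to 13.732 in vehicle, so muscle RNA was present too. The arrays were not at a common brightness as deposited, with trimmed means of 82.8 to 244 at 6 h, 116 to 183 at 24 h and 205 to 244 in vehicle. The beta-actin ratio of 5′ over 3′ probe sets, which is low where RNA is shortened, ran from 0.0725 to 0.425 at 6 h, from 0.198 to 0.529 at 24 h and from 0.484 to 0.593 in vehicle. One array stood apart in cell type markers: 24 h replicate 4 averaged 7.81 over 12 macrophage markers and 11.09 over 7 fibroblast markers, below every other array, and 11.67 over 8 keratinocyte markers, above every other array. Values without it stand beside many of the 24 h differences.

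No chemokine ligand or receptor was called at either time. With limma and Benjamini-Hochberg adjustment over all genes, 0 of 28 members passed at 6 h and 0 of 28 at 24 h, where 0% of all genes passed in each comparison. The smallest adjusted p of a member was 0.173 at 6 h and 0.621 at 24 h. At an unadjusted p under 0.05, 1 member was higher and 3 were lower at 6 h, where 8.02% of all genes were higher and 8.05% lower. At 24 h 0 members were higher and 3 were lower at that level, where 3.16% of all genes were higher and 4.47% lower. Both comparisons use the same 3 vehicle arrays.

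Most members lay below vehicle by their fitted differences, without passing the test. The median difference over the 28 members was -0.369 at 6 h, where the median over all genes was 0.00373, and 22 members lay below vehicle (78.6%, against 49.6% of all genes). At 24 h the median was -0.701, where all genes had -0.0201, and 23 members lay below vehicle (82.1%, against 52.4%). The size of both medians rests on single arrays: without 24 h replicate 4 the 24 h median was -0.245 with 22 members below vehicle, and without 6 h replicate 5 the 6 h median was -0.706. Between the times, 24 h minus 6 h, the median was -0.177, and it turned to 0.195 without 24 h replicate 4. There 0 members were called (0% of all genes), and at an unadjusted p under 0.05, 1 member was higher and 0 were lower, where 3.76% of all genes were higher, 5.51% lower and 9.27% either.

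Few members were at the floor throughout. Near the floor here means a group mean of 5 or less, that is an intensity of up to about 16. By that measure 6 of the 34 measured members (17.6%) lay near the floor at 6 h, 8 (23.5%) at 24 h and 6 (17.6%) in vehicle. Over all genes the shares were 26.6%, 27.1% and 26.5%. The same 6 genes lay near the floor in every group and did not pass the filter: Cxcl2, Cxcl5, Ccl3, Ccl17, Ccl20 and Ccr7. Ccl22 and Cx3cl1 lay near it at 24 h. No member passed the filter through the vehicle arrays alone.

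**Figure D1:**
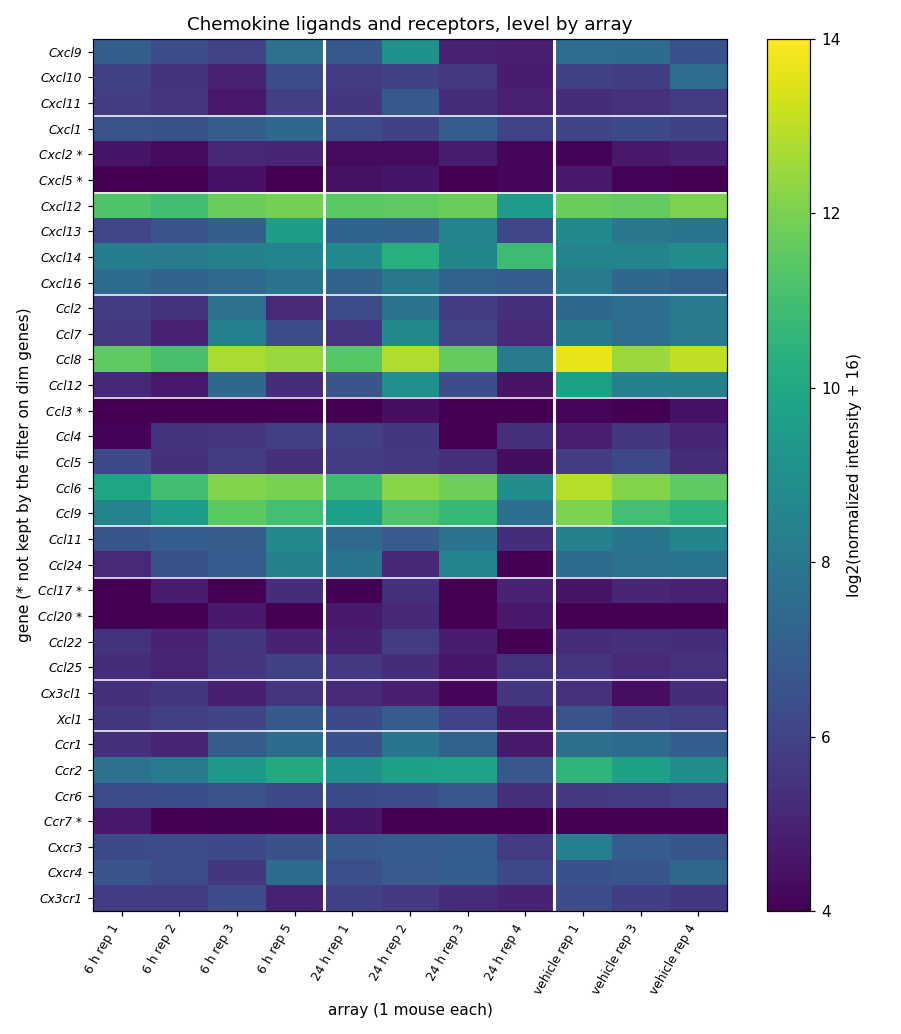
Level of 34 chemokine genes (rows, grouped by role) in each of the 11 arrays (columns), as log2(normalized intensity + 16), with 4 as the floor and an asterisk at the 6 genes that did not pass the filter. For Ccl8, Ccl6 and Cxcl12, 24 h replicate 4 was the lowest of the 11 arrays.

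Of the role groups, the ligands listed as monocyte-attracting had the lowest median difference at each time. Ccl2, Ccl7 and Ccl12 bind CCR2 and bring monocytes into tissue. Ccl8 was listed with them here, and all 4 passed the filter. In the GRCm38.p6 gene order of RefSeq, used here for neighbours only, Ccl2, Ccl7, Ccl11, Ccl12 and Ccl8 follow each other on chromosome 11. The differences of Ccl2, Ccl7, Ccl8 and Ccl12 from vehicle ran from -3.23 to -1.11 at 6 h (median -1.61) and from -2.19 to -1.34 at 24 h (median -1.81, or -1.14 without 24 h replicate 4), with 0 called. At an unadjusted p under 0.05, 2 of the 4 were lower at 6 h, where 8.05% of all genes were, and 2 of the 4 at 24 h, where 4.47% were.

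Ccl12, a mouse ligand of CCR2, was the member of smallest p at both times. It measured 5.10, 4.67, 7.38 and 5.25 in 6 h replicates 1, 2, 3 and 5, 6.65, 9.03, 6.35 and 4.51 in 24 h replicates 1 to 4, and 9.68, 8.39 and 8.41 in vehicle replicates 1, 3 and 4. Every 6 h array lay below every vehicle array, with 3 of the 4 close to the filter level of 5.21, while at 24 h replicate 2 lay within the vehicle range. As deposited, before normalization, its intensities were 26.1, 7.6, 70.9 and 13.9 at 6 h, 100.6, 398.8, 48.8 and 6.4 at 24 h, and 1147.7, 490.3 and 418.1 in vehicle. The group means were 5.60 ± 1.21 at 6 h (SD, n = 4), 6.64 ± 1.86 at 24 h (SD, n = 4) and 8.82 ± 0.74 in vehicle (SD, n = 3). The difference at 6 h was -3.23 ± 0.91 (SE), a 9.36-fold lower value on this scale, with a limma adjusted p of 0.173. It was called in 2 of 23 alternatives, in the values as deposited (adjusted p = 0.00551) and with array weights (adjusted p = 0.00631), and the adjusted p ran up to 0.498, without vehicle replicate 1. At 24 h the difference was -2.19 ± 0.91 (limma adjusted p = 0.621), and -1.50 without 24 h replicate 4.

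Ccl2, the monocyte chemoattractant MCP-1, measured 5.82, 5.45, 7.77 and 5.21 at 6 h, 6.30, 7.84, 5.83 and 5.39 at 24 h, and 7.35, 7.60 and 8.07 in vehicle. In each treated group 3 arrays lay below every vehicle array and 1 array (6 h replicate 3, 24 h replicate 2) lay within the vehicle range. The difference at 6 h was -1.61 ± 0.65 (limma adjusted p = 0.269). At 24 h it was -1.34 ± 0.65 (limma adjusted p = 0.654), or -1.03 without replicate 4.

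Ccl7, which signals through CCR2 and other receptors, had the same 2 arrays high, here above every vehicle array. It measured 5.70, 4.98, 8.31 and 6.27 at 6 h, 5.51, 8.76, 6.00 and 5.24 at 24 h, and 8.03, 7.61 and 8.15 in vehicle. The difference at 6 h was -1.62 ± 0.86 (limma adjusted p = 0.387). At 24 h it was -1.55 ± 0.86 (limma adjusted p = 0.68), or -1.19 without replicate 4. The 2 high arrays, with 6 h replicate 5, were the 3 of beta-actin ratio under 0.3. The ratio was 0.284 in 6 h replicate 3, 0.0725 in 6 h replicate 5 and 0.198 in 24 h replicate 2. The same ratio for Gapdh was low only in 6 h replicate 5 (0.104). It was 0.711 in 6 h replicate 3 and 0.804 in 24 h replicate 2, within the vehicle range of 0.698 to 0.911. Without those 3 arrays, an alternative chosen after seeing the data, the 6 h differences were -4.03 for Ccl12, -2.09 for Ccl2 and -2.67 for Ccl7, and the 24 h differences -3.03, -1.88 and -2.40, with 0 members called at either time. Only 6 h replicates 1 and 2 remain there at 6 h. For all 3 genes, 6 h replicate 3 and 24 h replicate 2 were the highest of their groups, so their removal alone lowers these differences. With the actin ratio as a covariate, also chosen after seeing the data, the 6 h differences were -4.52 for Ccl12, -2.07 for Ccl2 and -3.18 for Ccl7. The 24 h differences were -2.9, -1.59 and -2.41, and 0 members were called at either time. The part of RNA quality in these values was not tested beyond these alternatives.

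Ccl8, made by skin-resident macrophages in mice, was read from a bright probe set. It measured 11.56, 11.11, 12.73 and 12.45 at 6 h, 11.42, 12.82, 11.63 and 8.15 at 24 h, and 13.66, 12.49 and 13.04 in vehicle. Both treated groups overlapped vehicle, and 24 h replicate 4 lay far below the rest. The difference was -1.11 ± 0.87 at 6 h (limma adjusted p = 0.559) and -2.06 ± 0.87 at 24 h (limma adjusted p = 0.632), or -1.10 without 24 h replicate 4.

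**Figure D2:**
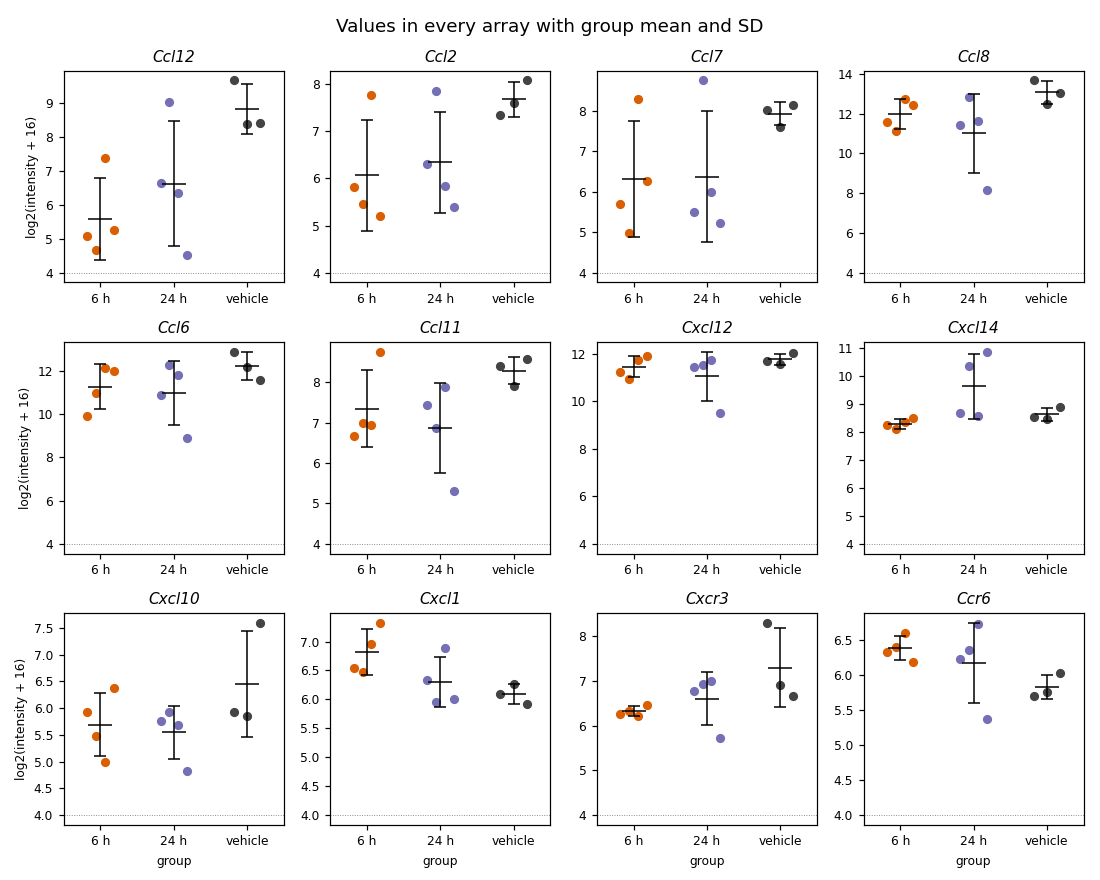
Values of 12 members in every array, as log2(intensity + 16), for 6 h, 24 h and vehicle from left to right, with the group mean as a bar and the SD as whiskers (n = 4, 4 and 3). The dotted line is the floor of 4. Ccl12 and Cxcr3 at 6 h and Ccl11 at 24 h lay wholly below vehicle, and Cxcl1 and Ccr6 at 6 h lay wholly above it.

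Promoter sequence was set beside these genes to show what lies upstream of a pair of neighbours that lay below vehicle, of an interferon-inducible ligand and of Cxcl14, the member with the highest 24 h difference. The 250 bases before each start are from RefSeq (GRCm38.p6) and run 5′ to 3′ on the gene's strand: chr11:82101595-82101844 on the + strand, chr11:82114935-82115184 on the + strand, chr5:92348890-92349139 on the - strand and chr13:56296552-56296801 on the - strand. Capitals mark matches to any of 5 motifs searched on both strands: TATAAA, the AP-1 site TGANTCA, the interferon response core (2 copies of GAAA parted by 2 bases), the STAT motif TTCNNNGAA and the κB consensus.
Ccl12: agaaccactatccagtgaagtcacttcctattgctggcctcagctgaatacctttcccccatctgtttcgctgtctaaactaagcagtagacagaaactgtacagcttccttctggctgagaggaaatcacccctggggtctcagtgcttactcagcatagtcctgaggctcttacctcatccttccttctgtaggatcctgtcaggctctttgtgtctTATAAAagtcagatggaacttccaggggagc
Ccl8: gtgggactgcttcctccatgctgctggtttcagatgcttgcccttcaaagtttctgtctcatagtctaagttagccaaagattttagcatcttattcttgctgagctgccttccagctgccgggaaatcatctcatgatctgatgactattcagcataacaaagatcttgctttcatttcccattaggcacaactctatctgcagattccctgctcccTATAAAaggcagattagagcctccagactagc
Cxcl10: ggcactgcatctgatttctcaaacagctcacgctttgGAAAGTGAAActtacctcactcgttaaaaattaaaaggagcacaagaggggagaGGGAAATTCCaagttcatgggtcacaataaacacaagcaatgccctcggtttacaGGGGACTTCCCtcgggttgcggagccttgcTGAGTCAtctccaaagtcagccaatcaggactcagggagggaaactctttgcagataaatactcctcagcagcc
Cxcl14: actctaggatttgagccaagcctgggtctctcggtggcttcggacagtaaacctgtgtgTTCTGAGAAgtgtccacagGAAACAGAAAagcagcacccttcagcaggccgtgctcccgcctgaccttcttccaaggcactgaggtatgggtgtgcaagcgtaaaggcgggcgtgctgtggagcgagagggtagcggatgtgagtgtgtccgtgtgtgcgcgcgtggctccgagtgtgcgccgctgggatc
Ccl12 and Ccl8 each held 1 TATAAA, at -31 to -26 and at -32 to -27 from the start, and none of the other 4 motifs in this window. Cxcl10 held the interferon response core at -213 to -204, TGANTCA at -74 to -68 and 3 matches to the κB consensus, 2 of which overlap each other and print as 1 run of capitals. Cxcl14 held TTCNNNGAA at -191 to -183 and the interferon response core at -172 to -163. Of 32851 promoter windows of the same length, 12.4% held TATAAA, 6.75% TGANTCA, 2.98% the interferon response core, 7.02% TTCNNNGAA and 7.25% the κB consensus. The table held a promoter for 24 of the 34 measured members, of which 7 held TATAAA, 2 TGANTCA, 2 the interferon response core, 3 TTCNNNGAA and 6 the κB consensus. A match is a run of letters, not a shown binding site.

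Ccl6, a CCR1 ligand of rodents made by myeloid cells, measured 9.91, 10.97, 12.14 and 11.999 at 6 h, 10.88, 12.24, 11.81 and 8.91 at 24 h, and 12.88, 12.16 and 11.56 in vehicle. The groups overlapped, and the difference was -0.95 ± 0.75 at 6 h (limma adjusted p = 0.562), or -0.508 without 6 h replicate 1, and -1.24 ± 0.75 at 24 h (limma adjusted p = 0.693), or -0.56 at 24 h without replicate 4. Its neighbour Ccl9 averaged 10.13 ± 1.35 at 6 h, 9.80 ± 1.57 at 24 h and 11.20 ± 0.79 in vehicle. Its differences were -1.07 at 6 h, or -0.545 without 6 h replicate 1, and -1.40 at 24 h, or -0.69 without 24 h replicate 4. Ccl5 (RANTES) and Ccl4 were dim, with group means of 5.17 to 5.74, and differed from vehicle by -0.44 to 0.079, the lowest being Ccl5 at 24 h, which was -0.111 without 24 h replicate 4. Ccl3 was at or near the floor in every group.

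Eosinophil-attracting ligands, which act on CCR3, lay below vehicle at both times with wide spread. Ccl11 (eotaxin) measured 6.66, 6.99, 6.95 and 8.75 at 6 h, 7.43, 6.86, 7.87 and 5.31 at 24 h, and 8.39, 7.90 and 8.57 in vehicle. At 6 h replicate 5 lay above every vehicle array and the other 3 below, while at 24 h all 4 arrays lay below vehicle, replicate 3 by a narrow margin. The difference was -0.95 ± 0.60 at 6 h (limma adjusted p = 0.464), or -1.41 without replicate 5. At 24 h it was -1.42 ± 0.60 (limma adjusted p = 0.632), or -0.91 without replicate 4. Ccl24 averaged 6.74 ± 1.32 at 6 h, 6.39 ± 2.16 at 24 h and 7.75 ± 0.20 in vehicle, its 24 h arrays running from the floor to 8.51. Its 24 h difference of -1.35 was -0.557 without 24 h replicate 4, and its 6 h difference of -1.01 was -0.487 without 6 h replicate 1 and -1.56 without 6 h replicate 5. Ccl11 was the 1 member wholly below vehicle at 24 h, where 6.02% of all genes were, and 0 members lay wholly above, where 5.09% did (11.1% either).

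Among CXC ligands the interferon-inducible group was uneven. Cxcl9, Cxcl10 and Cxcl11 bind CXCR3 on activated T cells and natural killer cells, and all 3 passed the filter with 0 called. Cxcl10 measured 5.93, 5.47, 4.99 and 6.37 at 6 h, 5.75, 5.93, 5.68 and 4.82 at 24 h, and 5.92, 5.84 and 7.60 in vehicle. Vehicle replicate 4 was the single high array, and without it the 6 h difference of -0.76 ± 0.46 was -0.19 and the 24 h difference of -0.91 ± 0.46 was -0.34 (limma adjusted p = 0.437 and 0.661 with it). Cxcl9 was spread most at 24 h, with 6.00 to 7.78 at 6 h, 4.85 to 9.09 at 24 h and 6.53 to 7.57 in vehicle. Cxcl11 differed by 0.0085 at 6 h and by 0.17 at 24 h, a sign that turned with the array left out at both times (-0.136 without 6 h replicate 5, -0.203 without 24 h replicate 2).

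Of the neutrophil-attracting CXC ligands, which act on CXCR2, only Cxcl1 passed the filter. Its brightest probe set measured 6.54, 6.47, 6.95 and 7.33 at 6 h, 6.33, 5.95, 6.89 and 6.01 at 24 h, and 6.09, 6.26 and 5.92 in vehicle. All 6 h values exceeded the vehicle values, with a difference of 0.73 ± 0.27 (limma adjusted p = 0.241), and at 24 h the difference was 0.21 ± 0.27 (limma adjusted p = 0.856), or 0.00857 without 24 h replicate 3. The other probe sets of Cxcl1 went the other way at 6 h, by -0.405 and -0.789, and with the mean of the probe sets the 6 h difference was -0.153, so no direction can be given for this gene. Cxcl2 and Cxcl5 were near the floor in all groups.

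Of the 4 constitutive and membrane-bound CXC ligands, all lay below vehicle at 6 h and 3 at 24 h, and 0 were called. Cxcl12, which binds CXCR4 and is made by fibroblasts and endothelium, measured 11.25, 10.93, 11.74 and 11.90 at 6 h, 11.44, 11.54, 11.76 and 9.52 at 24 h, and 11.71, 11.59 and 12.04 in vehicle. At 24 h 3 arrays lay close to vehicle and replicate 4 lay well below. The difference was -0.32 ± 0.47 at 6 h (limma adjusted p = 0.762), or -0.148 without 6 h replicate 2, and -0.72 ± 0.47 at 24 h (limma adjusted p = 0.714), or -0.20 at 24 h without replicate 4. Its dimmer probe sets differed in direction. The brighter of these gave -0.423 at 6 h and -0.23 at 24 h, and the other gave 0.601 and 0.548. Cxcl13, which draws B cells through CXCR5, averaged 7.34 ± 1.53 at 6 h, 7.24 ± 0.96 at 24 h and 8.21 ± 0.47 in vehicle. Its difference of -0.87 at 6 h was -1.61 without 6 h replicate 5, and that of -0.96 at 24 h was -0.603 without 24 h replicate 4. Cxcl16, a membrane-bound ligand of CXCR6, differed by -0.044 at 6 h and -0.22 at 24 h, and both were above 0 without vehicle replicate 1 (0.244 at 6 h and 0.0719 at 24 h).

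Cxcl14, a ligand made constantly by epithelium including epidermis, was the member with the highest 24 h difference. It measured 8.23, 8.09, 8.36 and 8.50 at 6 h, 8.68, 10.36, 8.57 and 10.87 in 24 h replicates 1 to 4, and 8.52, 8.45 and 8.89 in vehicle. Replicates 2 and 4 at 24 h lay above all other arrays, and the other 24 h arrays lay within the vehicle range. Cxcl14 was the 1 member whose 24 h arrays all lay above the 6 h arrays, where 1.92% of all genes did so and 3.54% lay wholly below (5.46% either). Its 24 h minus 6 h difference was 1.33 ± 0.45 (limma adjusted p = 0.389), or 0.915 without 24 h replicate 4. Against vehicle the difference was -0.33 ± 0.49 at 6 h (limma adjusted p = 0.769) and 1.00 ± 0.49 at 24 h (limma adjusted p = 0.654), or 0.59 at 24 h without replicate 4. A second Cxcl14 probe set gave -0.88 at 6 h and 0.188 at 24 h. The keratinocyte marker mean was 11.67 in 24 h replicate 4 and 10.34 in 24 h replicate 2, against 10.20 to 10.66 in vehicle.

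The remaining ligands were dim. Ccl22, a CCR4 ligand of dendritic cells, measured 5.47, 4.97, 5.60 and 4.999 at 6 h, 4.89, 5.79, 4.81 and 4.00 at 24 h, and 5.28, 5.38 and 5.28 in vehicle, with overlap in every comparison. Its 24 h minus 6 h difference was -0.39 ± 0.32 (limma adjusted p = 0.763), or -0.0992 without 24 h replicate 4. Ccl25, Cx3cl1 and Xcl1 had group means between 4.94 and 6.19 and differed from vehicle by -0.23 to 0.30, with signs that turned as single arrays were left out. Ccl17 and Ccl20 were near the floor.

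**Figure D3:**
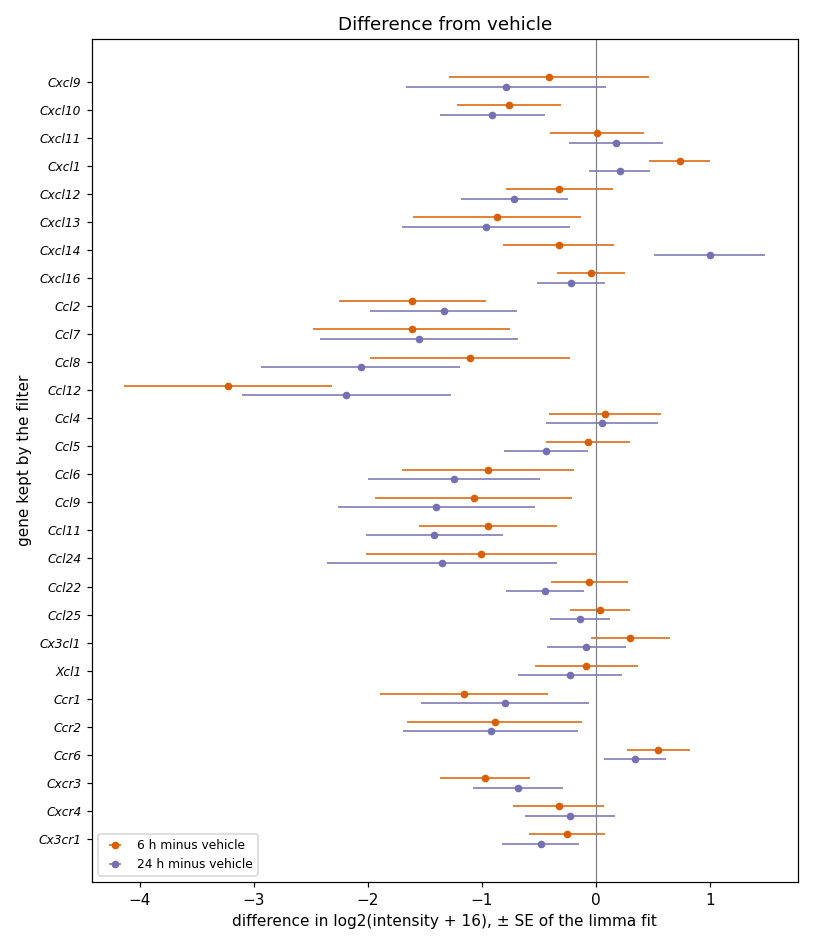
Difference from vehicle of the 28 members that passed the filter, at 6 h and at 24 h, in log2(intensity + 16), with the SE of the limma fit (horizontal axis). The ligands listed as monocyte-attracting, Ccl2, Ccl7, Ccl8 and Ccl12, lay between -3.23 and -1.11, and no member passed the adjusted threshold of 0.05.

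Of the 7 receptors, 6 passed the filter, 5 of these lay below vehicle at each time and 0 were called. Their median at 24 h was -0.586, or -0.201 without 24 h replicate 4. Cxcr3, the receptor of Cxcl9, Cxcl10 and Cxcl11, measured 6.25, 6.32, 6.22 and 6.47 at 6 h, 6.78, 6.93, 6.99 and 5.72 at 24 h, and 8.30, 6.91 and 6.66 in vehicle. The 6 h arrays lay close together below every vehicle array, while vehicle replicate 1 stood high. The difference at 6 h was -0.97 ± 0.39 (limma adjusted p = 0.271), and -0.45 without vehicle replicate 1. At 24 h it was -0.69 ± 0.39 (limma adjusted p = 0.684), -0.18 without that array and -0.396 without 24 h replicate 4.

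Ccr6, the receptor of Ccl20 on T cells, B cells and dendritic cells, lay on the other side. It measured 6.33, 6.399, 6.59 and 6.18 at 6 h, 6.23, 6.35, 6.73 and 5.37 at 24 h, and 5.70, 5.76 and 6.03 in vehicle. All 6 h values exceeded the vehicle values, with a difference of 0.55 ± 0.27 (limma adjusted p = 0.354), which was 0.018 in the values as deposited. At 24 h it was 0.34 ± 0.27 (limma adjusted p = 0.763), or 0.61 without replicate 4 and 0.156 without replicate 3. Of the 28 members, 2 (Cxcl1 and Ccr6) lay wholly above vehicle and 2 (Ccl12 and Cxcr3) wholly below at 6 h, where 9.77% and 8.77% of all genes did (18.5% either).

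Ccr2, the receptor that brings monocytes to Ccl2, averaged 8.85 ± 1.09 at 6 h, 8.82 ± 1.45 at 24 h and 9.74 ± 0.79 in vehicle (SD, n = 4, 4 and 3). Its difference was -0.89 at 6 h, or -0.487 without vehicle replicate 1, and -0.92 at 24 h, or -0.216 without 24 h replicate 4. Ccr1, which binds Ccl6 and Ccl9 among others, averaged 6.22 ± 1.20 at 6 h, 6.58 ± 1.36 at 24 h and 7.38 ± 0.37 in vehicle. Its 6 h difference was -1.16 (limma adjusted p = 0.461), or -0.774 without 6 h replicate 2 and -1.61 without 6 h replicate 5. Its 24 h difference of -0.80 was -0.187 without 24 h replicate 4. Cxcr4 and Cx3cr1, the receptors of Cxcl12 and Cx3cl1, differed from vehicle by -0.49 to -0.23 across both times. With 1 array left out, the 6 h difference ran from -0.668 to -0.0276 for Cxcr4 and from -0.481 to 0.00017 for Cx3cr1. Ccr7, which guides dendritic cells to lymph nodes, was near the floor.

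Calls appeared for some members under other settings of the 6 h comparison. In the values as deposited 5 of 28 members were called lower (17.9%), where 6.27% of all genes were called: Ccl2, Ccl7, Ccl12, Ccr1 and Cxcr3. With limma array weights 6 of 28 were called (21.4%), where 18.2% of all genes were: Ccl2, Ccl7, Ccl11, Ccl12 and Ccr1 lower and Ccr6 higher. As deposited the median of all genes lay at -0.679, and the members' median at -1.12. At 24 h and between the times no member was called under any setting run.

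Macrophage markers were low on some of the arrays with low ligands, but not on all. At 6 h 12 of 12 markers lay below vehicle with a median of -1.06, or -0.578 without vehicle replicate 1. At 24 h 12 of 12 lay below with a median of -0.90, but without 24 h replicate 4 the count was 9 of 12 and the median -0.205. None was called, and none was near the floor in every group. Their mean was 9.01, 9.24, 10.14 and 10.19 at 6 h, 10.43, 10.32, 10.48 and 7.81 at 24 h, and 11.41, 10.44 and 10.18 in vehicle. The mean of Ccl2, Ccl7, Ccl8 and Ccl12 in the same order was 7.04, 6.55, 9.05 and 7.30 at 6 h, 7.47, 9.61, 7.45 and 5.82 at 24 h, and 9.68, 9.02 and 9.42 in vehicle. The 3 arrays with the lowest marker means (24 h replicate 4, 6 h replicates 1 and 2) also had the lowest ligand means. In 6 h replicate 5 and 24 h replicates 1 and 3, by contrast, the markers lay within the vehicle range and the ligands lay below every vehicle array. In 6 h replicate 5, the array of lowest actin ratio, the marker mean lay only just inside the vehicle range. It was 10.187, against 10.184 in vehicle replicate 4. Markers and ligands of 24 h replicate 2 lay at or above the lowest vehicle array. In 6 h replicate 3 the markers lay just below the vehicle range with the ligands inside it. The markers' part in the difference was not tested, and in bulk skin fewer macrophages and less RNA per macrophage cannot be told apart. Markers of other cell types were also low, with 0 called in each list. At 6 h the median difference was -0.875 for 4 adipocyte markers, -0.774 for 5 mast cell markers, -0.701 for 6 blood endothelial markers and -0.647 for 4 lymphatic endothelial markers. Fibroblast markers had -0.268 and dendritic and Langerhans cell markers -0.253 at 6 h. At 24 h the medians, with the value without 24 h replicate 4 in brackets, were -0.631 for adipocyte markers (-0.279), -1.05 for mast cell markers (-0.48), -0.733 for blood endothelial markers (-0.508) and -0.556 for lymphatic endothelial markers (-0.295). They were -0.616 for fibroblast markers (-0.185) and -0.464 for dendritic and Langerhans cell markers (-0.33). Neutrophil markers had -0.0303 at 6 h and -0.278 at 24 h (-0.015), and T cell markers -0.0313 and -0.00353. Keratinocyte markers lay the other way, with 0.352 at 6 h and 0.395 at 24 h (0.0823). Without 6 h replicate 1 the 6 h keratinocyte median was 0.0988. Skeletal muscle markers had -0.307 at 6 h, or -0.00406 without 6 h replicate 5, and 0.0753 at 24 h (0.096). The part of these cell types in the ligands' differences was not tested.

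**Figure D4:**
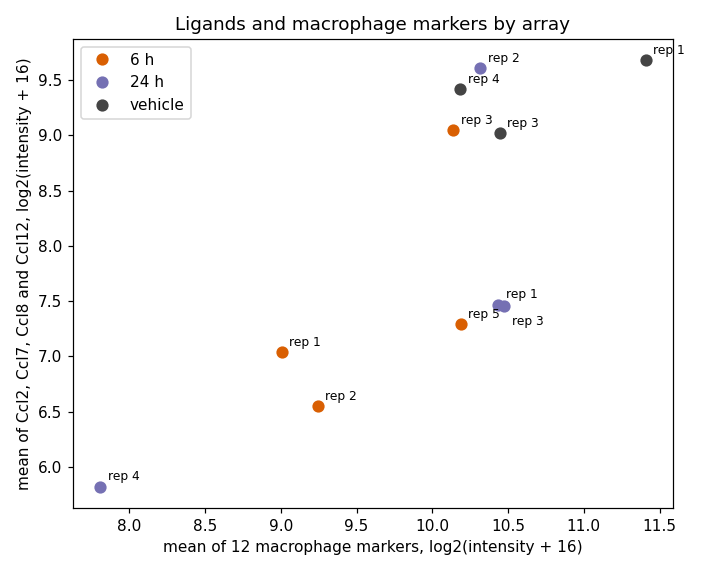
Mean of 12 macrophage markers (horizontal axis) and mean of Ccl2, Ccl7, Ccl8 and Ccl12 (vertical axis), both as log2(intensity + 16), in each of the 11 arrays, labelled by replicate number. Arrays 6 h replicate 5 and 24 h replicates 1 and 3 lay within the vehicle range of the markers and below the vehicle range of the ligands. For the markers, 6 h replicate 5 lay only just inside.

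Other genes of the chemokine system gave no call either. Of 9 other ligands listed, 8 were measured and 3 kept: Pf4, a platelet and macrophage chemokine, differed by -1.32 ± 0.79 at 6 h and -1.16 ± 0.79 at 24 h (-0.451 without 24 h replicate 4), Ccl27a, a keratinocyte ligand for skin-homing T cells, by 0.37 ± 0.23 at 6 h, and Ccl28 by 0.35 ± 0.22 at 24 h. Of 11 other receptors 9 were measured and 3 kept, and the differences of Xcr1 and Cxcr6 at 6 h were 0.52 ± 0.28 and 0.40 ± 0.31, with Cxcr6 at 0.34 ± 0.31 and Ccr9 at -0.23 ± 0.26 at 24 h. Atypical receptors, which bind chemokines without G protein signalling, were all 5 kept, and 4 lay below vehicle at each time. Ackr3, which scavenges Cxcl12, differed by -0.84 ± 0.26 at 6 h (limma adjusted p = 0.191) and -0.44 ± 0.26 at 24 h (-0.297 without 24 h replicate 4). Ccrl2 differed by -0.82 ± 0.29 at 6 h, where its mean of 4.73 was near the floor. Ackr1, found on venules, differed by -0.63 ± 0.29 at 24 h.

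Of 14 signalling genes 13 were kept, 11 lay below vehicle at 6 h and 12 at 24 h (9 without 24 h replicate 4), and 0 were called. Arrb1, the beta-arrestin 1 gene, which uncouples receptors after activation, differed by -0.89 ± 0.18 at 6 h with every 6 h array below vehicle (limma adjusted p = 0.11), and by -0.12 ± 0.18 at 24 h. Pik3cd, a phosphoinositide kinase of leukocytes, differed by 0.65 ± 0.20 at 6 h. Dock2 and Rac2, which drive leukocyte movement, differed by -1.20 ± 0.45 and -1.01 ± 0.42 at 24 h, or -0.739 and -0.65 without 24 h replicate 4. Rac2 was -0.577 without vehicle replicate 1. Of 9 listed inducers of chemokine genes 6 were kept and 0 called: Rela, an NF-κB subunit, differed by -0.35 ± 0.15 at 6 h, the interferon-γ receptor chain gene Ifngr2 by -0.54 ± 0.23 at 6 h and -0.20 ± 0.23 at 24 h (0.0222 without 24 h replicate 4), and Irf1 by -0.41 ± 0.28 at 24 h (-0.0459 without vehicle replicate 1).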

How the data were processed

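The authors deposited 1 table of intensity values for 45101 probe sets on 11 arrays, on a linear scale with 12.9% to 16.6% of the values of an array below 0. The sources used here do not give the software, background method or scaling. The input was 200 ng of total RNA, biotin-labelled by 3′ IVT, per the labels' protocols. Values were quantile-normalized, set to at least 0 and taken as log2(intensity + 16). The annotation gave 1 gene for 34958 probe sets, several for 932 and none for 9211, and 34754 matched the current gene table by Entrez identifier. The 3 groups entered a single limma 3.58.1 model (R 4.3.3), and two-sided p-values were adjusted over 13710 genes with a threshold of 0.05. The test was checked on simulated data in which noise was independent between genes. Shared deviations of whole arrays were not simulated.

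The members and gene lists were chosen with earlier results of these data known. Per-array values are given for the 6 members of smallest p in each comparison with vehicle, the 3 of smallest p between the times and the 3 of highest vehicle mean. Other genes named are the 2 of smallest p per list. The main model did not test genes that failed the filter or genes without a probe set of their own. Same-numbered arrays were checked for pairing by the correlation of their deviations from group means. For vehicle and 24 h the 3 correlations were 0.246, 0.135 and 0.205. For 6 h they were -0.12 and -0.0738 with vehicle, and -0.064, -0.345 and 0.169 with 24 h. Vehicle and 24 h arrays of different number ran from -0.35 to 0.211, so these correlations do not show whether the numbers are pairs. The main model did not pair arrays by number. No arrays of a group were duplicates (at most 3 identical intensities). The number of arrays limits the precision.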

Additional observations from a re-analysis of the deposited data

Results flagged for a closer look

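Of 56 groups of 4 arrays checked (28 members at 2 times), 3 held an array whose gap to its nearest neighbour was large for the range of the group, where chance gives 1 in 20, or 2.8. Cxcl12 measured 9.52 in 24 h replicate 4, where the other 24 h arrays measured 11.43 to 11.76. Cxcr3 measured 5.72 in the same array, where the others measured 6.78 to 6.99. Ccl11 measured 8.75 in 6 h replicate 5, the array of lowest actin ratio, where the others measured 6.66 to 6.99.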

How the results depend on the processing

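In the 6 h comparison the number of genes called was 859 as deposited, 18 with no filter, 7 with the mean of probe sets, 2498 with array weights and 1 with the replicate block, and 5 members were called as deposited and 6 with array weights. The 6 h member median was -1.12 as deposited, -0.918 with the filter at the 60th percentile, -0.609 with array weights, -0.763 with probe sets averaged, -0.914 with the replicate block and -1.04 with the actin ratio as a covariate. In the 24 h comparison 6 genes were called as deposited, 1 with no filter and 59 with array weights, and the member median was -1.27 as deposited, -0.349 with array weights, -0.416 with a pseudocount of 64 and -0.443 with no filter. The replicate block, which pairs arrays by number, called 0 genes at 24 h. Between the times 8 genes were called with median scaling, 2 with probe sets averaged, 1 with x_at and s_at probe sets left out, 423 with array weights and 1 with the actin covariate. That median turned to 0.229 with array weights, 0.229 with the replicate block, 0.23 with the actin covariate and 0.0418 without the arrays of actin ratio under 0.3. Both actin alternatives were chosen after seeing the data. Signs turned for Cxcl1 with the mean of probe sets (-0.153 at 6 h, -0.2 at 24 h) and as deposited at 24 h (-0.231), and for Ccr6 as deposited at 24 h (-0.0459). Between the times they turned with array weights for Ccl11 (0.319), Cxcl10 (0.141), Ccl6 (0.226) and Cxcl12 (0.263), and with the replicate block for Ccl11 (0.221), Cxcl10 (0.0196) and Ccl6 (0.45). Ccl6 was 0.261 with the actin covariate, and without the arrays of low actin ratio Ccl11 was 0.0237 and Ccl6 0.0869. Leaving out 1 array at a time gave 0 to 22 genes called at 6 h, 0 to 1 at 24 h and 0 to 7 between the times, and 0 members in each. The medians ran from -0.706 to -0.273, from -0.832 to -0.245 and from -0.32 to 0.195. Signs turned for Ccl22 at 6 h (-0.174 to 0.0405) and, between the times, for Ccl2 (-0.224 to 0.856), Ccl7 (-0.731 to 0.734), Ccr6 (-0.4 to 0.0594), Ccl11 (-0.814 to 0.0468), Cxcl10 (-0.387 to 0.0942), Ccl6 (-0.751 to 0.388) and Cxcl12 (-0.623 to 0.118). The highest values of the last 5 came without 24 h replicate 4. The cause was not tested, and signal near the floor limits the dim members.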
